A study of Caenorhabditis elegans with 6 samples.

Results

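The pqn genes of Caenorhabditis elegans (prion-like, glutamine- or asparagine-rich proteins) were taken as a family by name. They comprised every gene whose symbol is pqn followed by a number and that a non-control array probe could be matched to. The gene table used for naming holds 56 such symbols, and 49 of them had a probe among 20434 named genes on the array. Of these 49 genes, 41 passed the requirement that their probe be well above background on at least 3 of the 6 arrays, and they were tested together with all other features, 19825 in total. The 41 genes were then divided by measured values: 11 were selected on their covariation with the abu genes of the pharyngeal cuticle across arrays of the same strain, and the remaining 30 did not meet that criterion. The measure used for this division removes the mean of each strain, so the strain difference did not enter it, but it comes from the same 6 arrays and is given as a description.

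Whole young adult worms that had not begun to reproduce were compared between strain RB1035, mutant for flcn-1 and backcrossed 8 times to WTN2, and the wild type WTN2 itself. Both strains were synchronised, fed OP50 bacteria on agar plates and picked before RNA extraction, and each was represented by 3 biological replicates, 1 array per RNA sample. The gene flcn-1 encodes the worm counterpart of folliculin, a human tumour suppressor. No tissue was isolated and the place of the lesion relative to the flcn-1 probe was not established here, so the array does not check the genotype.

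Glutamine- and asparagine-rich stretches resemble the domains by which yeast prions assemble, and pqn genes were grouped by this composition, not by a shared function. The family therefore mixes secreted proteins of the foregut lining with proteins that act inside many cell types. The abu genes, whose name stands for activated in blocked unfolded protein response, encode prion-like proteins that build the cuticle of the pharynx, the muscular pumping organ through which a worm feeds. That cuticle is renewed at each moult, and its genes are expressed in cycles around the larval moults.

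The flcn-1 probe gave -0.11, 0.37 and 0.49 on the RB1035 arrays and 0.73, 0.16 and 0.20 on the WTN2 arrays, as log2 signal relative to the 75th percentile of the array, the scale used throughout. Its difference, RB1035 minus WTN2 as for every difference below, was -0.11 (limma adjusted p = 0.90), and the strains overlapped. On each array 68.1% to 73.1% of 43603 probes were well above background, and none was saturated. Copies of the same probe varied more on 2 RB1035 arrays, with a median coefficient of variation of 22.4% on RB1035 2 and 20.9% on RB1035 3, against 9.15% to 11.2% on the 4 other arrays. The arrays lay on 2 slides, RB1035 1 and WTN2 1 on slide 1 and the other 4 on slide 2. The p-values measure the spread between these samples, and 3 arrays per strain limit every value.

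No pqn gene passed an adjusted p of 0.05 in the limma fit over all features. The lowest adjusted p among the 41 was 0.65, and 20 of 19825 features passed, or 0.101%. Signals nevertheless lay mostly on 1 side: 33 pqn genes had the higher mean in RB1035 and 8 the lower, with a median difference of 0.47, beside 50.3% of all features higher and a median of 0.00. At an unadjusted p under 0.05, 7 pqn genes were higher in RB1035 and 0 were lower. Of all 19825 features, 574 (2.9%) were higher and 860 were lower at that level. The array values of 6 pqn genes (pqn-22, pqn-54, pqn-62, pqn-78, pqn-88 and pqn-91) did not overlap between the strains, all being above WTN2 in RB1035. Of all features 5.22% lay wholly above WTN2 in the same way, and 1336 of 19825 lay wholly below. The probes of pqn-54 and pqn-91 were well above background on 3 RB1035 arrays but 1 WTN2 array, so the RB1035 arrays alone met the filter. For 31 of the 41 genes the range over the 3 WTN2 arrays exceeded the difference between the strains, as it did for 16204 of 19825 features. Leaving out single arrays moved the median of the 41 genes between 0.27 without WTN2 3 and 0.67 without WTN2 2. With only probes well above background on all 6 arrays kept, 34 pqn genes remained and their median was 0.29.

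**Figure D1:**
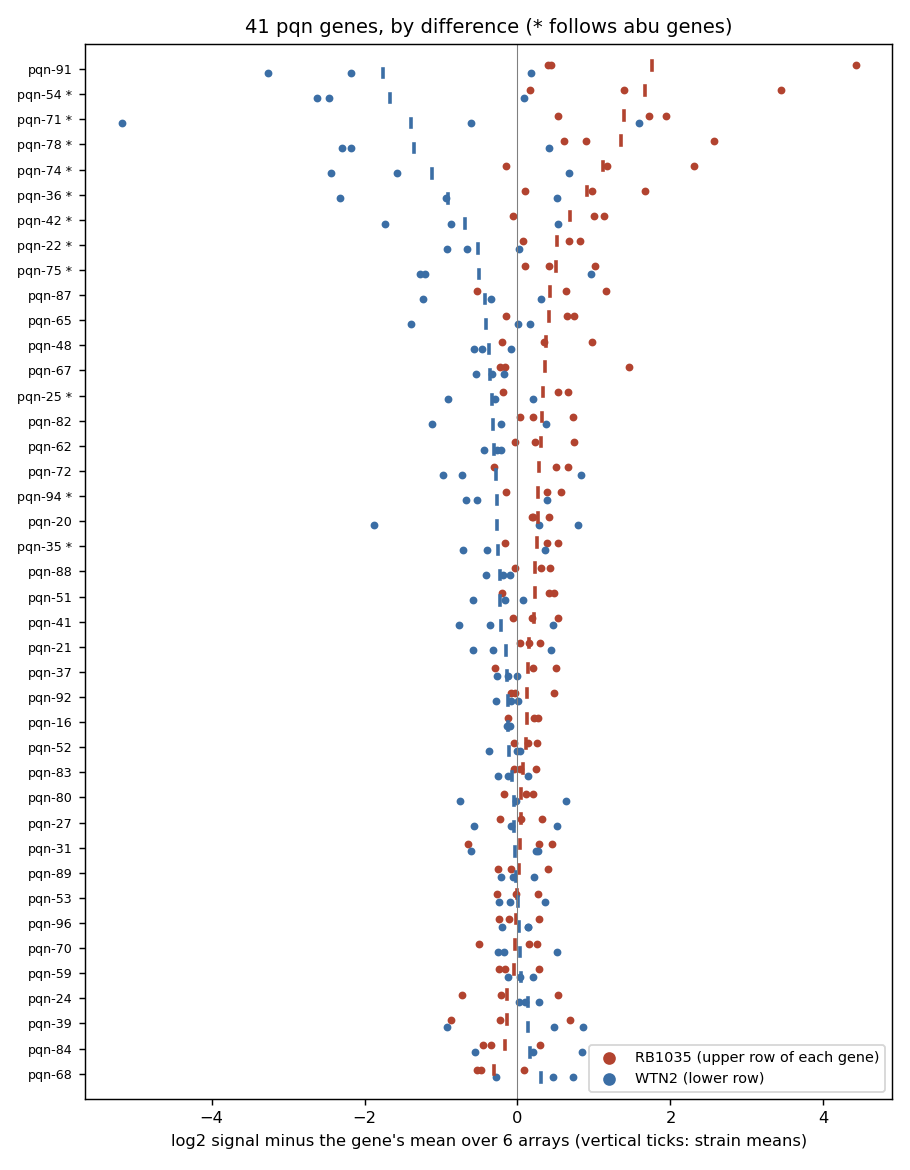
Log2 signal of each of the 41 tested pqn genes on each array, minus the mean of that gene over the 6 arrays, with genes ordered by the difference between strains. RB1035 arrays are in the upper row of each gene (red) and WTN2 arrays in the lower row (blue), short vertical ticks mark strain means, and asterisks mark the 11 genes that follow the abu genes. The differences of 3.51 for pqn-91 and 3.34 for pqn-54 go with a wide spread among the arrays of each strain and with probes well above background on 1 of 3 WTN2 arrays.

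The spread within a strain had a common pattern. The mean level of the 10 tested abu genes was -3.32, -0.96 and -2.25 on RB1035 1, 2 and 3, and -6.79, -3.45 and -5.54 on WTN2 1, 2 and 3. Among the RB1035 arrays replicate 2 was the highest, and among the WTN2 arrays replicate 2 was again the highest, while WTN2 1 lay lowest of all 6. WTN2 2 lay only just below RB1035 1, the lowest RB1035 array. All 10 abu genes had the higher mean in RB1035, with a median difference of 3.36 and 0 called. A pqn gene was said to follow the abu genes when its deviations from its own strain means correlated with the mean deviations of the abu genes at a Pearson r of at least 0.8 over the 6 arrays, which leaves 4 degrees of freedom. By that measure 11 of 41 pqn genes followed, beside 7.12% of all features. Of the 10 abu genes, 8 reached that r with the mean they are part of, while abu-9 had 0.68 and abu-13 -0.71. It was also reached by 5 of 7 pharyngeal muscle markers and 5 of 8 pharyngeal gland genes.

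The 11 genes that followed all had the higher mean in RB1035, with a median difference of 1.38, and 8 of them differed by more than 2-fold. The other 30 pqn genes had a median difference of 0.24, with 22 higher and 8 lower. None of either group was called. Of the 7 genes with an unadjusted p under 0.05, 6 followed (pqn-22, pqn-36, pqn-42, pqn-54, pqn-74 and pqn-78) and 1 did not (pqn-91). Averaged over the 11 genes that followed, the deviation from the 6-array mean was 0.08, 1.51 and 0.87 on RB1035 1, 2 and 3, and -1.87, 0.52 and -1.11 on WTN2 1, 2 and 3. In these genes WTN2 2 lay above RB1035 1, whereas in the abu genes it lay just below. For the other 30 genes the same averages were -0.01, 0.30 and 0.23 in RB1035, and -0.12, 0.06 and -0.46 in WTN2.

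**Figure D2:**
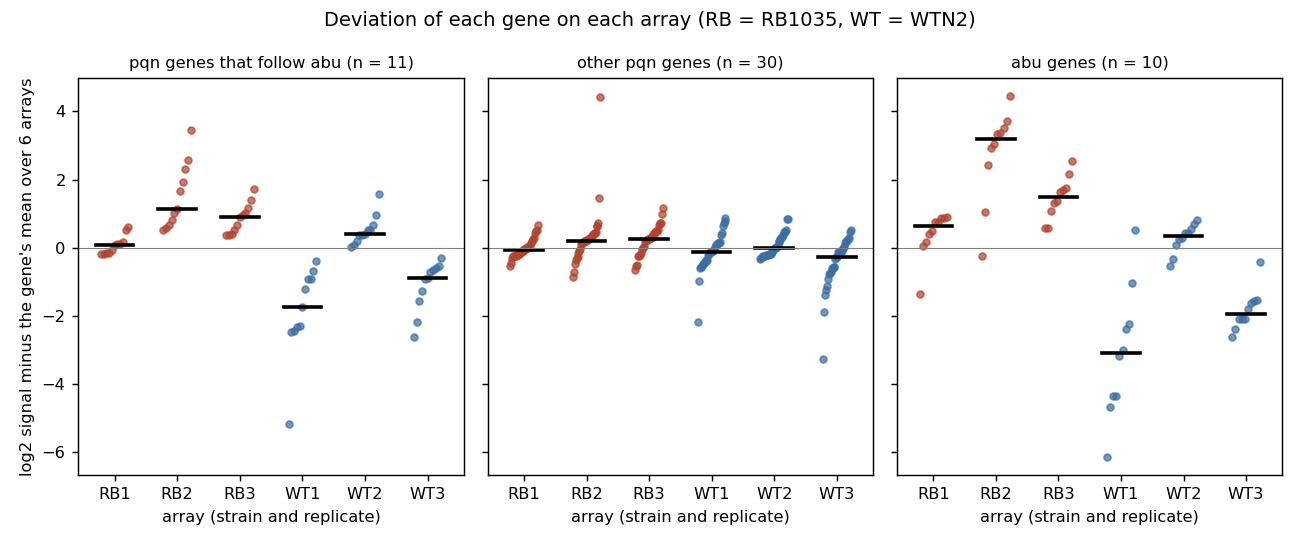
Deviation of each gene from its own mean over the 6 arrays (log2, y axis) on each array (x axis, RB1035 left of WTN2), for the 11 pqn genes that follow the abu genes, the 30 others and the 10 abu genes. Each point is a gene and each black bar the median. In the first and last panels RB1035 2 has the highest median and WTN2 1 the lowest, with WTN2 2 close to RB1035 1. In the middle panel the average deviations lie between 0.30 on RB1035 2 and -0.46 on WTN2 3, with pqn-91 far above the others on RB1035 2.

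Because the array differences fall within strains as well as between them, slides were also taken apart. On slide 1, which held RB1035 1 and WTN2 1, the median difference of the genes that followed was 1.68, with 11 of 11 higher. On slide 2, with the 4 remaining arrays, it was 1.24, again with 11 of 11 higher. Of 19825 features, 9490 were higher on slide 1 and 9863 on slide 2. The 11 genes were selected to vary together, so their count is not 11 separate observations. The other 30 pqn genes gave a median of -0.10 on slide 1, where 13 were higher, and 0.39 on slide 2, where 23 were higher, so the sign of that median rests on slide 2. With the same 11 genes kept, their median difference was 0.86 without WTN2 1 and 2.00 without WTN2 2, and all 11 stayed higher.

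The genes with the widest swings among those that followed were pqn-54, pqn-71, pqn-78 and pqn-74. The gene pqn-54 (R09B5.5, chromosome V) gave -5.89, -2.61 and -4.66 on RB1035 1, 2 and 3, and -8.52, -5.97 and -8.67 on WTN2 1, 2 and 3. The strains just separated, and RB1035 2 stood highest. Its difference was 3.34 (95% interval from the limma fit 1.21 to 5.46, limma adjusted p = 0.65), but in WTN2 the probe was well above background on only 1 of 3 arrays, so its size is uncertain: it was 1.03 with normexp background correction and 1.70 in the deposited table. The gene pqn-78 (Y105C5A.5, chromosome IV) gave -3.80, -1.84 and -3.52 in RB1035, and -6.70, -4.0 and -6.58 in WTN2, again without overlap. Its difference was 2.71 (95% interval 0.92 to 4.49, limma adjusted p = 0.65), with 2 of 3 WTN2 arrays well above background. With normexp it was 1.53.

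A single WTN2 array carried most of the difference of pqn-71 (T23F1.6, chromosome V). It gave -2.94, -1.53 and -1.75 in RB1035, and -8.65, -1.89 and -4.07 in WTN2. WTN2 1 was not well above background, and WTN2 2 lay between the RB1035 values. Its difference of 2.79 had a 95% interval of -0.48 to 6.07, and it was 5.71 on slide 1 but 1.34 on slide 2. Without WTN2 1 it was 0.91, and with normexp 1.41.

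The gene with the closest likeness to the abu mean was pqn-74 (W02A2.3, chromosome IV), with r = 0.99 within strains. It gave -3.68, -1.22 and -2.36 in RB1035, and -5.97, -2.85 and -5.10 in WTN2, well above background on all 6 arrays. WTN2 2 lay above RB1035 1, and the remaining WTN2 arrays lay below all of RB1035. The difference was 2.22 (95% interval 0.29 to 4.16, limma adjusted p = 0.65) and nearly equal on the slides, at 2.29 on slide 1 and 2.19 on slide 2.

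Dimmer probes with the same order of arrays were those of pqn-36 and pqn-42. The values of pqn-36 (F39D8.1, chromosome X, r = 0.99) were -5.50, -3.94 and -4.63 in RB1035, and -7.93, -5.09 and -6.53 in WTN2, a difference of 1.83. Those of pqn-42 (F53G2.4, chromosome II, r = 0.96) were -5.98, -4.80 and -4.92 in RB1035, and -7.66, -5.39 and -6.80 in WTN2, a difference of 1.38. For both genes WTN2 2 lay between the RB1035 arrays, and WTN2 1 was not well above background. With normexp the differences were 0.85 for pqn-36 and 0.64 for pqn-42.

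The gene pqn-22 (C46G7.4, chromosome IV) shared the order of arrays within each strain, with a compressed range. It gave 1.39, 2.15 and 1.99 in RB1035, and 0.39, 1.34 and 0.66 in WTN2, averaging 1.84 ± 0.40 in RB1035 and 0.80 ± 0.49 in WTN2 (SD, n = 3 each). The strains did not overlap, although RB1035 1 exceeded WTN2 2 only narrowly, and the difference was 1.04 (95% interval 0.24 to 1.84, limma adjusted p = 0.65). Per unit of the abu mean its deviations had a slope of 0.30, against 1.01 for pqn-54 and 1.48 for pqn-71.

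The gene pqn-75 (W03D2.1, chromosome IV), known for expression in the gland cells of the pharynx, gave -1.29, -0.38 and -0.99 in RB1035. In WTN2 it gave -2.60, -0.44 and -2.66. WTN2 2 lay between the RB1035 arrays, close to the highest of them, and the 2 other WTN2 arrays were below every RB1035 array. Its difference of 1.01 had a 95% interval of -0.34 to 2.37.

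Smaller differences belonged to pqn-94, pqn-25 and pqn-35. The gene pqn-25 (D1044.3, chromosome III, r = 0.95) gave -1.97, -1.13 and -1.25 in RB1035, and -2.70, -1.58 and -2.07 in WTN2, with a difference of 0.67. The gene pqn-94 (ZC15.8, chromosome V, r = 0.96) gave 2.31, 3.03 and 2.85 in RB1035, and 1.79, 2.84 and 1.93 in WTN2, with a difference of 0.54. These intervals and that of pqn-35 reached below 0, and in both genes WTN2 2 lay between the RB1035 arrays.

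At the edge of the criterion the 2 lowest values inside it were 0.83 for pqn-35 (F35D11.2, chromosome II) and 0.86 for pqn-71. The 2 highest outside it were 0.79 for pqn-91 and 0.76 for pqn-52. The gene pqn-35 gave -3.32, -2.62 and -2.76 in RB1035, and -3.55, -2.79 and -3.87 in WTN2, a difference of 0.50. Its neighbour across the line, pqn-91 (Y73F8A.9, chromosome IV), gave -4.33, -0.36 and -4.38 in RB1035, and -6.96, -4.60 and -8.04 in WTN2. Its difference of 3.51 was the largest among the 41 genes (95% interval 0.80 to 6.22, limma adjusted p = 0.65). The strains did not overlap, RB1035 2 stood far above the other arrays, and in WTN2 the probe was well above background on 1 of 3 arrays. With normexp the difference was 1.73. The gene pqn-52, outside the line, had a difference of only 0.23. The division at 0.8 thus runs between neighbouring values of r.

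**Figure D3:**
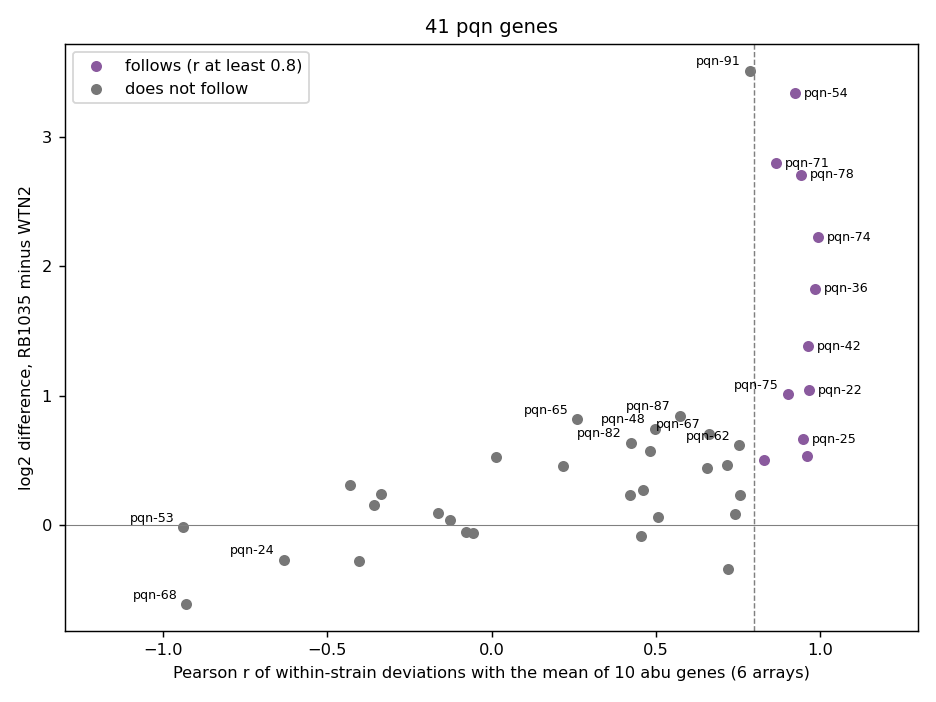
Pearson r between the within-strain deviations of each of 41 pqn genes and those of the abu mean over 6 arrays (x axis), against the log2 difference RB1035 minus WTN2 (y axis). The dashed line marks r = 0.8. Genes right of it have differences of 0.50 to 3.34. Genes left of it have -0.61 to 3.51 with a median of 0.24, and several of them lie above 0.50. The gene pqn-91 (r = 0.79, difference 3.51) is just outside the line.

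Over the 41 genes, r and the difference were related with a Pearson correlation of 0.59 and a Spearman correlation of 0.72, as a description over genes that share the same 6 arrays. Among the 11 genes that followed, those with the steeper slope per abu unit had the larger strain difference (Spearman 0.93). Mean level was related to both, with a Spearman correlation of -0.70 with the difference and -0.66 with the slope. Dimmer probes thus had the larger values of each, and the part of signal near background was not tested. The selection on r fixes that the deviations of these 11 resemble each other. The other 30 had a median r of 0.14 with each other, from -0.90 to 0.97 over 435 pairs.

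Proteins known to act inside cells were among the genes that did not follow. The gene pqn-59 encodes the worm counterpart of the human ubiquitin-associated protein UBAP2L. Its brightest probe gave 2.42, 2.49 and 2.93 in RB1035, and 2.54, 2.86 and 2.69 in WTN2, with a difference of -0.08 (95% interval -0.71 to 0.55). The strains overlapped fully. The gene pqn-41, which takes part in the death of the linker cell of the male gonad, gave -2.16, -1.91 and -1.57 in RB1035, and -2.46, -1.63 and -2.86 in WTN2. Its difference was 0.44 (95% interval -0.40 to 1.28).

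Different probes of a gene gave different values in several cases. The 18 probes of pqn-59 gave differences of -0.25 to 0.93, with 14 above 0, and 8 of them followed the abu genes although the brightest did not. With the mean of the probes of a gene in place of the brightest, pqn-59 followed. All 6 probes of pqn-41 were above 0, at 0.05 to 0.61, and 0 of them followed. For pqn-52, 5 of 6 probes were above 0, at -0.11 to 0.65, and 1 followed. The 3 probes of pqn-67 gave -0.24 to 0.71, and the brightest gave the highest value.

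**Figure D4:**
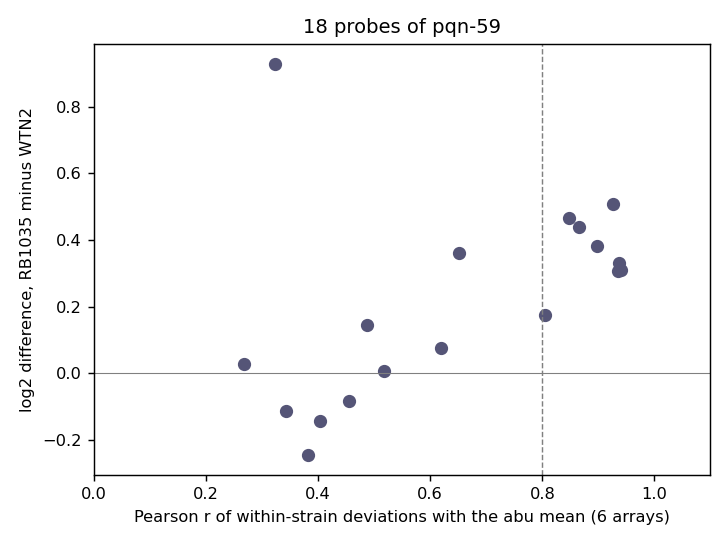
The 18 probes of pqn-59, each by the Pearson r of its within-strain deviations with the abu mean over 6 arrays (x axis) and its log2 difference RB1035 minus WTN2 (y axis), with a dashed line at r = 0.8. Differences span -0.25 to 0.93, and the 8 probes right of the line all lie above 0.

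Outside the criterion the largest positive differences after that of pqn-91 were 0.85 for pqn-87, 0.82 for pqn-65, 0.75 for pqn-48 and 0.71 for pqn-67. The gene pqn-87 gave -0.70, 0.46 and 0.99 in RB1035, and -0.53, 0.14 and -1.40 in WTN2, and the strains overlapped. For pqn-65 the values were 0.38, 1.18 and 1.27 in RB1035, and 0.70, 0.54 and -0.86 in WTN2, and WTN2 3 was the only WTN2 array below all of RB1035. On slide 1 the differences of pqn-87 and pqn-65 were negative, at -0.18 and -0.32. The genes pqn-62 and pqn-88 separated the strains with small differences, 0.62 and 0.47.

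Lower means in RB1035 were small throughout. The largest was that of pqn-68, whose difference was -0.61 (95% interval -1.40 to 0.19), with 1.67, 1.11 and 1.06 in RB1035 and 2.31, 1.31 and 2.05 in WTN2. Here WTN2 2 was the lowest WTN2 array, the inverse of the order in the genes that followed, and r with the abu mean was -0.93. The gene pqn-53 likewise had r = -0.94, with 3.18, 2.64 and 2.90 in RB1035 and 3.28, 2.67 and 2.82 in WTN2, but a difference of -0.02. Such inverse r of -0.8 or lower was found in these 2 pqn genes, beside 8.61% of all features. The differences of pqn-84, pqn-39 and pqn-24 were -0.34, -0.28 and -0.27, and each had overlapping strains.

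The rest of the brightest probes outside the criterion differed little. The differences of pqn-70, pqn-27 and pqn-83 were -0.06, 0.09 and 0.15. The 3 probes of pqn-51 gave 0.37 to 0.55, its brightest 0.46, and the gene pqn-80 had 0.10. Intervals of these 5 genes all included 0 and reached to between 0.71 and 1.18 on the upper side.

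The 8 pqn genes that were not tested were well above background on fewer than 3 of the 6 arrays. The gene pqn-63 gave -7.60, -3.81 and -5.92 in RB1035, and -7.63, -7.36 and -9.34 in WTN2, and was well above background on 2 RB1035 arrays and on no WTN2 array. RB1035 1 lay below WTN2 2, so the strains overlapped. The RB1035 mean was 2.49-fold higher, taking for each WTN2 array the lowest signal that counts as well above background. The signal of the probe itself was taken where that was higher. The RB1035 mean includes the array that was not well above background, so this fold is not a strict lower bound. For pqn-29 the values were -7.21, -6.24 and -6.20 in RB1035, and -8.44, -8.13 and -7.66 in WTN2. It was again well above background on 2 RB1035 arrays and no WTN2 array, and the fold by the same rule was 1.46. The gene pqn-26 was well above background on 1 RB1035 array and on no WTN2 array, and no fold is given. On no array were pqn-10, pqn-13 and pqn-90 well above background, while pqn-15 and pqn-73 were so on 1 RB1035 array each. Counted over all 49 genes, 41, 43 and 46 were well above background on RB1035 1, 2 and 3, and 34, 41 and 39 on WTN2 1, 2 and 3. The share of all probes did not follow this order, being 68.7% on RB1035 2 and 73.1% on WTN2 3.

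By position, 4 of the 6 tested pqn genes on chromosome IV followed the abu genes, as did 3 of 10 on chromosome V, 2 of 5 on II, 1 of 8 on III, 1 of 5 on X and 0 of 7 on I. In the order of protein-coding genes pqn-78 is next to abu-5 and pqn-79, with pqn-76 within 3 genes. Likewise pqn-91 is next to pqn-90. Neighbours of pqn-78 had no probe (pqn-76 and pqn-79), and pqn-90 was not above background. Genes of the abu and pqn families can be close copies of each other, and signal shared between copies was not tested.

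Markers of other tissues were set beside the pqn genes that followed, since fewer cells of a type and less RNA per cell cannot be told apart in whole animals. All 7 pharyngeal muscle markers had the higher mean in RB1035, with a median difference of 1.19 and 0 called, and myo-2, a myosin of pharyngeal muscle, had 2.02. Their mean deviation was -0.18, 1.18 and 0.55 on RB1035 1, 2 and 3, and -1.17, 0.40 and -0.78 on WTN2 1, 2 and 3, in the same order of arrays as the 11 pqn genes. Of 8 pharyngeal gland genes named phat, 7 were higher, with a median of 1.11. Their mean deviation was 0.02, 1.29 and 0.93 in RB1035, and -1.29, -0.14 and -0.81 in WTN2. One of them, phat-5, passed the test with a difference of 5.95 (limma adjusted p = 3.4e-05) and was not well above background on any WTN2 array. Its r with the abu mean was 0.09, with an SD of only 0.05 over the RB1035 arrays and WTN2 signals at background. Of the 8 phat genes, 5 had an r of at least 0.8.

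**Figure D5:**
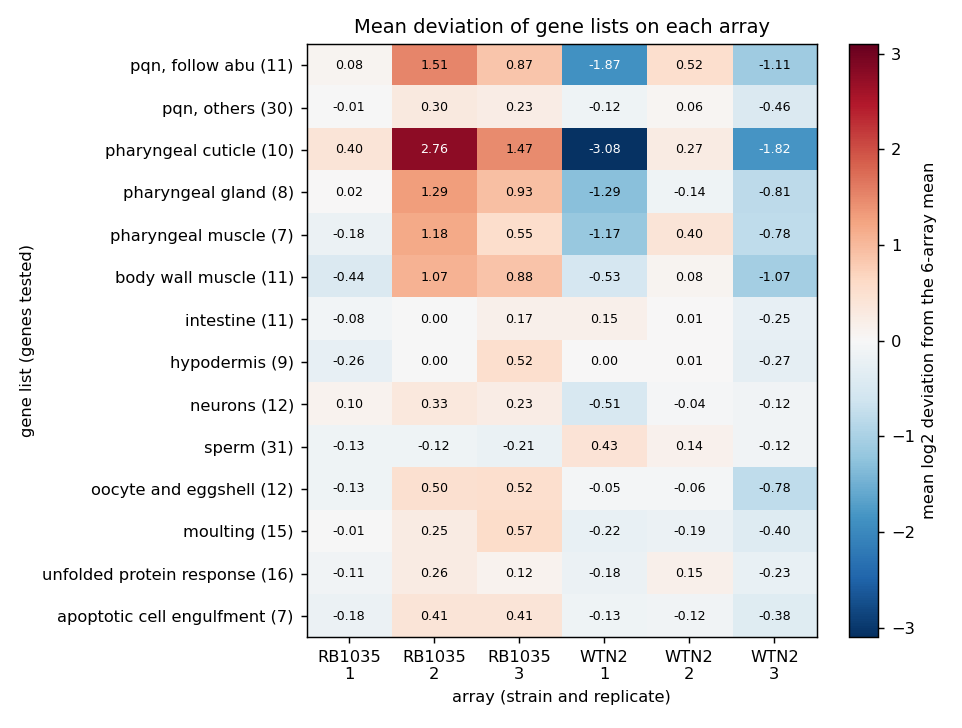
Mean log2 deviation from the 6-array mean on each array (columns, RB1035 left of WTN2) for the pqn genes that follow the abu genes, the other pqn genes and 12 lists of tissue, stage and pathway genes (rows, number of genes tested in brackets). Red is above and blue below the mean. The 11 pqn genes have 1.51 on RB1035 2 and -1.87 on WTN2 1. The pharyngeal and neuron lists are likewise highest on RB1035 2 and lowest on WTN2 1, body wall muscle is highest on RB1035 2 and lowest on WTN2 3, and the intestine, hypodermis and sperm lists have neither extreme on those arrays in that direction.

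Outside the pharynx the 11 body wall muscle markers were all higher in RB1035, with a median of 1.18, but 0.15 on slide 1 against 1.85 on slide 2, and their mean deviation was -0.44 to 1.07 in RB1035 and -1.07 to 0.08 in WTN2. The 12 neuronal markers were all higher with a median of 0.47, and a mean deviation of 0.10 to 0.33 in RB1035 and -0.51 to -0.04 in WTN2. Of 11 intestinal markers 8 were higher with a median of 0.06, of 9 hypodermal markers 4 with -0.16, and of 31 sperm genes 6 with -0.29. Lists tied to stage were also examined. Of 15 moulting genes 14 were higher, with a median of 0.35, and all 12 oocyte and eggshell genes were, with 0.56, although the oocyte list gave -0.10 on slide 1. The moulting list had mean deviations of -0.01 to 0.57 in RB1035 and -0.40 to -0.19 in WTN2, and the oocyte list had -0.13 to 0.52 in RB1035 and -0.78 to -0.05 in WTN2. Of 16 genes of the unfolded protein response 12 were higher, with a median of 0.23, and all 7 genes of apoptotic cell engulfment were, with 0.46. On slide 1 only 8 of the 16 and 2 of the 7 were higher. No member of these lists other than phat-5 was called. The part of stage, muscle content or array quality in the differences of the pqn genes was not tested.

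Outside the pqn and abu families, the 10 genes whose 6 array values were most like the mean of the 11 pqn genes were ztf-22, col-10, elt-7, ZK524.4, col-145, C14C6.2, metr-1, nex-4, pks-1 and daf-1. Their Pearson r with that mean was 0.99 to 1.00 over 6 arrays, chosen as the highest among all named genes. Differences between the strains ranged from 0.22 for elt-7 to 1.05 for col-145, a cuticle collagen, and 0 of the 10 were called.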

How the data were processed

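Each sample was grouped by the strain in its label. The authors extracted intensity values with Agilent Feature Extraction 10.7.3.1, per the file headers, and the deposited processed intensity has a spatial background and, except on RB1035 2, a multiplicative surface removed, with no normalization between arrays. A second deposited table holds log2 values with a median of 7.61 on each array. They are levels, they followed the order of the median spot signal on each array, and the steps behind them are not given in the sources used here. It served only as an alternative.

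Spots of a probe were averaged, control spots and 133 probes with an outlier flag were left out, and each array's 75th percentile was subtracted from the log2 processed intensity. Probes were kept when at least 3 of 6 arrays showed them well above background, and the brightest probe stood for a gene. Probes were named from a WBcel235 gene table, 30975 by sequence name and 3342 by accession; the probes were designed on build ce4, so no coordinates are given. Strains were compared with limma 3.58.1 (R 4.3.3; two-sided eBayes test after lmFit, Benjamini-Hochberg over 19825 features). The fit was tested on simulated data with the means and residual SDs of the real features, in which 200 features were changed by 2-, 4- or 8-fold. At an adjusted p under 0.05 the fit recovered 0.45% of the 2-fold, 43.9% of the 4-fold and 75.2% of the 8-fold changes. The absence of a call therefore says little about changes near 2-fold. Alternatives were normexp (offset 50, on median spot signals, the mean being absent from the files), quantile normalization, median centring, other filters and probe rules, slide and replicate blocks, single slides and each array left out.

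The members, the lists and the criterion on r were chosen with earlier results of these data known. Genes were named by a rule: all pqn genes that followed, the 8 others with the brightest probes, the 5 largest differences each way, both pairs at the edge of r, pqn-41, pqn-51, pqn-59 and pqn-80, the 10 most similar genes, and list members with the smallest p. Array values of pqn-36, pqn-42 and pqn-54 and the names of pqn-62, pqn-88 and the untested genes were added after their values were seen. A comparison of protein composition was not run, since no protein sequences were used here.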

Additional observations from a re-analysis of the deposited data

Results flagged for a closer look

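Among the pqn genes that did not pass the filter on dim probes, pqn-29 and pqn-63 gave a signal well above background on 2 RB1035 arrays each and on 0 WTN2 arrays. Neither entered the test. The folds given above, 1.46 for pqn-29 and 2.49 for pqn-63, are not strict lower bounds. They rest mainly on RB1035 2 and RB1035 3, the arrays whose repeated probes varied most.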

How the results depend on the processing

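The direction of the 11 pqn genes that followed was kept under every alternative run, 11 of 11 higher (6 of 6 under the filter that asks for signal above background on all 6 arrays). The alternatives reuse the same arrays, and the 11 genes were selected to vary together, so these counts are no replication. The median difference of the 11 was 0.84 under that filter and 1.03 with normexp, and single arrays left out gave 0.86 (WTN2 1) to 2.00 (WTN2 2). With the genes selected anew it was 0.63 with normexp, beside 0.39 for the pqn genes that then did not follow. Normexp selected 14 genes, and 8 of them were among the 11. Over all features, 20 calls became 11 with normexp and 1 with that filter, where dim probes are not tested. The filter left 7 pqn genes following in place of 11, and a criterion of r of at least 0.7 gave 17. Leaving out single arrays gave 10 to 16. With normexp, quantile normalization, median centring, probe means, the deposited table and no filter, 7 of the 11 always followed (pqn-25, pqn-36, pqn-42, pqn-54, pqn-71, pqn-74 and pqn-78). Of these only pqn-25 and pqn-74 did under the filter on all 6 arrays, where the others were not tested, and pqn-71 did not without WTN2 2. With normexp pqn-22, pqn-75 and pqn-94 no longer followed, while pqn-37, pqn-62, pqn-67, pqn-84, pqn-87 and pqn-91 newly did. With the deposited table pqn-75 and pqn-35 did not follow, and pqn-62 newly did. The median of the 30 others was -0.10 within slide 1. With a replicate block 3 pqn genes were called in place of 0: pqn-54, pqn-91 and pqn-78 (limma adjusted p = 0.021, 0.022 and 0.037). Over all features that block gave 30 calls of 19825. Over all features same-numbered arrays correlated at 0.12, 0.12 and 0.02, so the numbers were not taken as pairs. Over the pqn genes they correlated at 0.48, 0.59 and 0.17, with 5 of 6 arrays closest to their own number, WTN2 3 being closer to RB1035 1. In the other alternatives the lowest adjusted p of a pqn gene was 0.25 to 0.99. Signal near background limits pqn-54, pqn-91, pqn-71, pqn-78, pqn-36 and pqn-42 in WTN2.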
